A study of Mus musculus with 8 samples.

Results

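The genes described here are 8 kinesins of axonal transport, the heavy chains Kif1a, Kif1b, Kif3a, Kif5a, Kif5b and Kif5c and the light chains Klc1 and Klc2, out of 22430 genes in the count table. They were selected by gene symbol and family, but also chosen by values of these data, since the age differences of their read counts were already known. Those differences are therefore given as descriptions and without p-values. Where a member is said below to be called or to pass a limit, this too is a description and not a test. RNA of a whole brain hemisphere from 8 males of the inbred mouse strain C57Bl/6JRj was sequenced on Oxford Nanopore (ONT) flow cells, with 1 library per mouse. Of these mice, 4 were young adults of 6 months (6m) and 4 were aged animals of 24 months (24m), and the labels name no engineered allele or treatment. The study's methods describe direct RNA sequencing, in which the RNA strand itself passes the pore from its poly(A) end, whereas the labels name a kit for poly(A) cDNA libraries, and the methods were followed here. A hemisphere holds many cell types, so that in this bulk tissue fewer cells of a type and less RNA per cell cannot be told apart.

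Kinesins are motor proteins that walk along microtubules with energy from ATP, and in axons most of them carry cargo outward, toward the synapse. Kinesin-1 is built from Kif5 heavy chains, which hold the motor, and kinesin light chains, which bind cargo. Kif1a and Kif1b belong to kinesin-3, known for carrying precursors of synaptic vesicles and mitochondria, and Kif3a is a motor subunit of kinesin-2. Kif5b is made in most tissues, while Kif5a and Kif5c are known as neuronal forms, and transport back to the cell body is the work of cytoplasmic dynein with its cofactor dynactin.

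The paralogs, whose reads are compared below, are clearly distinct in their coding sequences. Aligned over whole coding sequences without counting gaps, 73.16% of bases were identical between Kif5a and Kif5c, 71.11% between Kif5b and Kif5c and 66.41% between Kif5a and Kif5b. The identity was 71.09% between Kif1a and Kif1b and 71.55% between Klc1 and Klc2. None of the 8 genes had another annotated transcript at 95% identity or more over at least 50% of its canonical transcript. Some exons do lie opposite those of a neighbouring gene of the table: Kif5a shares 276 bases with Dctn2, Kif3a 179 with Il4 and Klc1 1898 with Xrcc3, all on opposite strands. Kif5a shares more, 970 bases, with Gm40800, a long noncoding RNA gene on the opposite strand that is not in the table. Klc2 likewise shares 654 bases with Gm10817, and Kif5b and Kif5c have shorter overlaps of this kind. The strand setting of the read counting is not given in the sources used here, so reads from these stretches cannot be assigned with certainty.

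The libraries held between 573152 and 1255424 counted reads, so that 1 read was worth 0.767 to 1.81 CPM, the count of a gene scaled to a fixed library total. All 8 genes were read in every library, from 5 reads of Kif5b in 24m replicate 3 to 867 reads of Klc1 in 24m replicate 4. Every listed marker of neurons, astrocytes, oligodendrocytes, their progenitors, microglia, endothelium, choroid plexus, ependyma and red blood cells was read in at least 1 library. This does not test the tissue label, since only 5754 of the 22430 genes had no read in any library. CPM below are scaled by the trimmed mean of M-values (TMM), and log2FC are 24m against 6m from edgeR's quasi-likelihood fit of 9375 genes with a mean count over 5. A gene is called changed where its Benjamini-Hochberg adjusted p is at most 0.05 and its absolute log2FC at least 0.58.

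Kif5a, the neuronal kinesin-1 heavy chain, was the member with the largest difference and was higher at 24m. Its CPM were 27.1, 39.8, 43.6 and 71.6 in 6m replicates 1 to 4 and 65.5, 117.5, 160.0 and 102.0 in 24m replicates 1 to 4. The groups overlapped, since 24m replicate 1 lay below 6m replicate 4, and the other 24m libraries lay above all 6m libraries. The mean went from 45.5 ± 18.8 to 111 ± 39.1 (SD, n = 4), a fitted difference of 1.29 ± 0.233 (log2FC ± SE) or 2.44-fold, past both thresholds. The gene, ENSMUSG00000074657, lies at chr10:127060993-127103180 on the minus strand, and its canonical transcript has 4284 bases in 28 exons.

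Kif5b, the broadly made kinesin-1 heavy chain, was lower at 24m. Its CPM were 20.9, 12.7, 33.6 and 30.1 at 6m and 10.7, 14.6, 6.4 and 10.7 at 24m. The groups overlapped in 1 place, where 24m replicate 2 was above 6m replicate 2. The mean of 24.3 ± 9.44 at 6m stood against 10.6 ± 3.33 at 24m, a log2FC of -1.21 ± 0.319, past both thresholds. These are few reads, 7 to 27 per library at 6m and 5 to 14 at 24m. Without 6m replicate 3, its highest library, the log2FC was -1.01 and Kif5b was no longer called. The gene, ENSMUSG00000006740, lies at chr18:6199099-6242174 on the minus strand.

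Kif5c, the other neuronal heavy chain, was not called, with CPM of 22.2, 25.3, 16.2 and 17.6 at 6m and 19.8, 21.8, 20.5 and 9.97 at 24m. The groups overlapped widely and 24m replicate 4 stood apart below the others. The means were 20.3 ± 4.2 and 18 ± 5.43 and the log2FC was -0.21 ± 0.293, with 0.08 when 24m replicate 4 was left out. The gene, ENSMUSG00000026764, lies at chr2:49509265-49664791 on the plus strand.

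**Figure D1:**
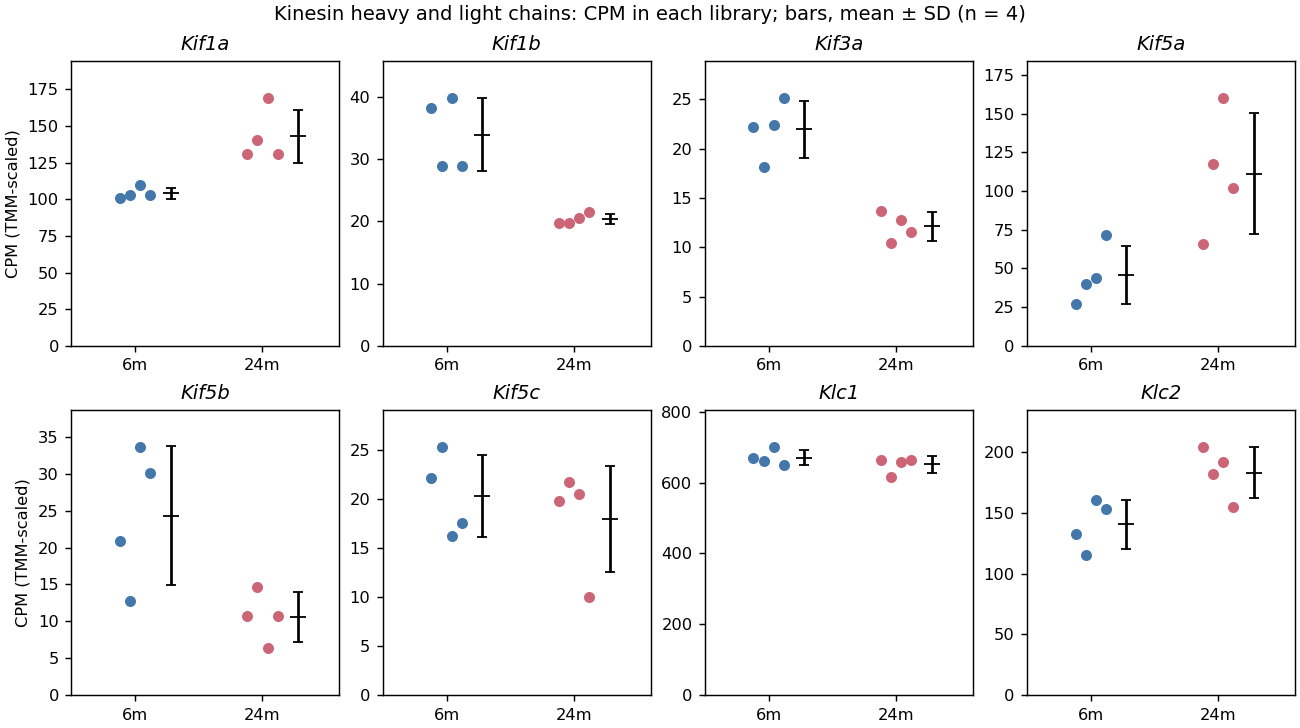
CPM (TMM-scaled, vertical axes starting at 0, 1 scale per panel) of the 8 kinesin genes in each library at 6m (blue) and 24m (red), with bars for mean ± SD (n = 4). The 24m libraries lie above all 6m libraries for Kif1a and below all of them for Kif1b and Kif3a, and the ages overlap for the other 5 genes.

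Kif5a thus held a larger part of the kinesin-1 heavy chain reads in the aged brain. Of all Kif5 reads, it made up 38.6, 51.2, 46.7 and 60.0% in the 6m libraries and 68.3, 76.4, 85.6 and 83.1% in the 24m libraries. All 24m libraries were above all 6m libraries, although the nearest neighbours had overlapping Clopper-Pearson intervals at 95%, of 49.4 to 69.9% in 6m replicate 4 (57 of 95 reads) and 55.3 to 79.4% in 24m replicate 1 (43 of 63 reads). The mean share was 49.1 ± 8.93% at 6m and 78.3 ± 7.78% at 24m.

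The share of Kif5b was 29.8, 16.3, 36.0 and 25.3% of Kif5 reads at 6m and 11.1, 9.46, 3.42 and 8.75% at 24m, again without overlap. Kif5c held 24.1 ± 9.33% at 6m and 13.5 ± 5.38% at 24m, and here the libraries overlapped. The Clopper-Pearson intervals given above for Kif5a cover counting error only, whereas the ± values are SDs over the libraries of an age. The shares within a library do not depend on its scaling. When reads were first divided by the length of the canonical transcript, Kif5a held 58.9 ± 8.57% at 6m and 84.6 ± 6.00% at 24m, also without overlap. Summed over the 3 genes, kinesin-1 heavy chain CPM were 70.2 to 119 at 6m and 96.0 to 187 at 24m, with overlap.

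**Figure D2:**
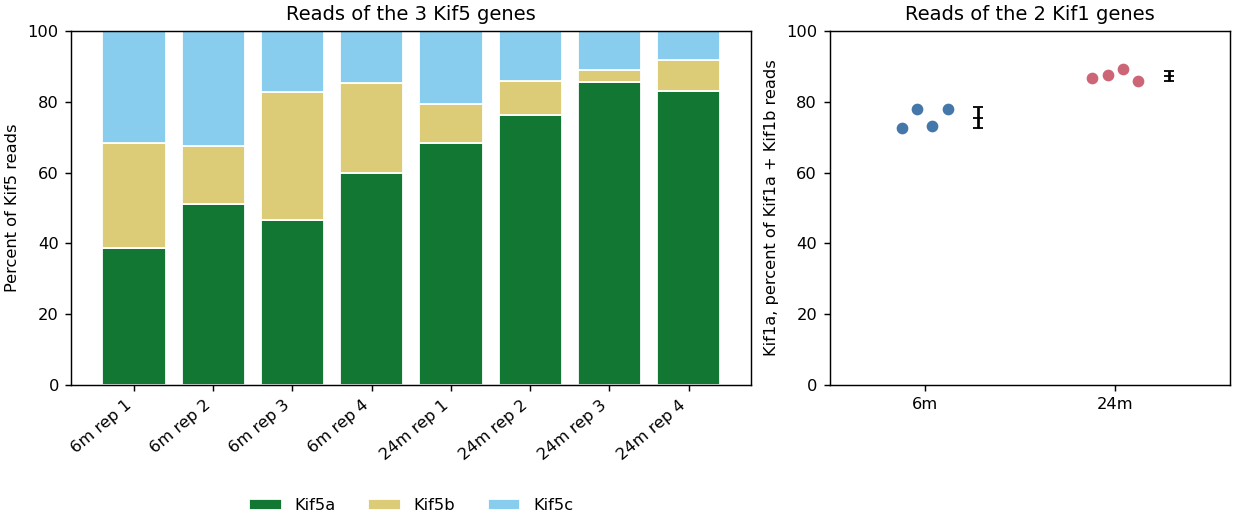
Left, the percent of Kif5 reads held by Kif5a, Kif5b and Kif5c in each library, stacked to 100. Right, Kif1a as a percent of Kif1a and Kif1b reads, 1 point per library with mean ± SD (n = 4); the Kif5a share is at most 60.0% at 6m and at least 68.3% at 24m, and the Kif1a share goes from 75.5% to 87.4%.

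Within kinesin-3, Kif1a had more reads at 24m and Kif1b fewer. Kif1a, the neuronal motor of synaptic vesicle precursors, had CPM of 100.9, 103.1, 109.5 and 103.0 at 6m and 131, 140.4, 169 and 131 at 24m. All 24m libraries were above all 6m libraries. The means were 104 ± 3.73 and 143 ± 17.9, and the log2FC of 0.45 ± 0.130, a 1.37-fold difference, passed the limit on adjusted p but not that on size. Without 24m replicate 3, Kif1a did not pass the limit on adjusted p either. Kif1a, ENSMUSG00000014602, lies at chr1:92942641-93029752 on the minus strand.

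Kif1b, known for carrying mitochondria and synaptic vesicle precursors, went the other way. It had CPM of 38.2, 28.9, 39.8 and 28.9 at 6m and 19.8, 19.8, 20.5 and 21.5 at 24m, where all libraries lay below those at 6m and close together. The means were 33.9 ± 5.86 and 20.4 ± 0.801 and the log2FC was -0.74 ± 0.222, past both thresholds. It was not called when 6m replicate 1, 6m replicate 3 or 24m replicate 2 was left out, with log2FC between -0.81 and -0.65 over the 8 fits that each left out 1 library. Kif1a made up 72.6 to 78.1% of the reads of the pair at 6m and 85.9 to 89.2% at 24m, a mean of 75.5 ± 2.98% against 87.4 ± 1.38%. Kif1b, ENSMUSG00000063077, lies at chr4:149260618-149410343 on the minus strand and has the longest canonical transcript of the 8 genes, of 10963 bases.

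Kif3a, the kinesin-2 motor subunit that also serves transport in cilia, was lower at 24m. Its CPM were 22.2, 18.1, 22.4 and 25.1 at 6m and 13.7, 10.4, 12.8 and 11.5 at 24m, without overlap. The means were 21.9 ± 2.90 and 12.1 ± 1.46 and the log2FC was -0.89 ± 0.278, past both thresholds. The gene had 9 to 20 reads per library. The call was lost in 7 of 17 alternative fits, among them DESeq2 on the raw counts and the fits without 6m replicate 1, 3 or 4 or 24m replicate 2 or 4, while the log2FC stayed between -0.96 and -0.78. Kif3a, ENSMUSG00000018395, lies at chr11:53458168-53495071 on the plus strand.

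The light chains, which couple Kif5 heavy chains to cargo, differed less between the ages. Klc1 was the most abundant of the 8 genes, with CPM of 669.6, 660.0, 699.5 and 650.5 at 6m and 665, 616.5, 658 and 665 at 24m. The groups overlapped and the means of 669.9 ± 21.2 and 651 ± 23.2 lay within the spread of the libraries. Its log2FC was -0.04 ± 0.0835, and the sign turned in 3 of 17 alternative fits. Klc1, ENSMUSG00000021288, lies at chr12:111724555-111775796 on the plus strand.

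Klc2 had CPM of 133, 116, 161 and 153 at 6m and 204, 182, 192 and 155 at 24m. Of the 24m libraries, replicate 4 lay inside the 6m range and the other 3 above it. The means were 140.6 ± 20.3 and 183 ± 21.0, and the log2FC of 0.36 ± 0.128 passed the limit on adjusted p and not that on size. Klc2 did not pass the limit on adjusted p with DESeq2, on raw or on quantile-normalized counts. Nor did it in the fits without 6m replicate 1, 2 or 4 or 24m replicate 1, 2 or 3. The share of Klc1 in the light chain reads was 82.7 ± 1.93% at 6m and 78.1 ± 2.07% at 24m, with overlap between the ages. Light chain reads per Kif5 read were 11.4, 9.98, 9.21 and 6.74 at 6m and 9.05, 5.19, 4.55 and 6.68 at 24m, also with overlap, at means of 9.34 ± 1.97 and 6.37 ± 2.00. Klc2, ENSMUSG00000024862, lies at chr19:5157769-5168803 on the minus strand.

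Of the 8 genes, 1 was therefore called higher at 24m, Kif5a, and 3 were called lower, Kif1b, Kif3a and Kif5b. Over all tested genes 14.5% were called, 10.3% higher and 4.17% lower. By library ranges, 1 member lay wholly above at 24m and 2 wholly below, beside 11.1% and 9.96% of all tested genes, 21.1% together. By adjusted p alone, 6 of the 8 genes passed, 3 higher with Kif1a and Klc2 and 3 lower, where 21.7% of all genes did, 12.3% higher and 9.42% lower. Nothing is read from these counts, since the members were chosen with this comparison known. The median log2FC of the 8 genes was -0.12, beside -0.003 over all tested genes. In the order of all tested genes by log2FC, 96.7% lay below Kif5a, 78.3% below Kif1a and 74.4% below Klc2, and 0.907% lay below Kif5b, 2.70% below Kif3a and 4.51% below Kif1b. Klc1 and Kif5c stood between, with 46.7% and 32.3% of genes below them. With DESeq2, whether the counts were raw or quantile-normalized, 2 of the 8 genes were called, Kif5a and Kif5b, beside 8.9% of all genes on raw and 8.74% on quantile-normalized counts.

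**Figure D3:**
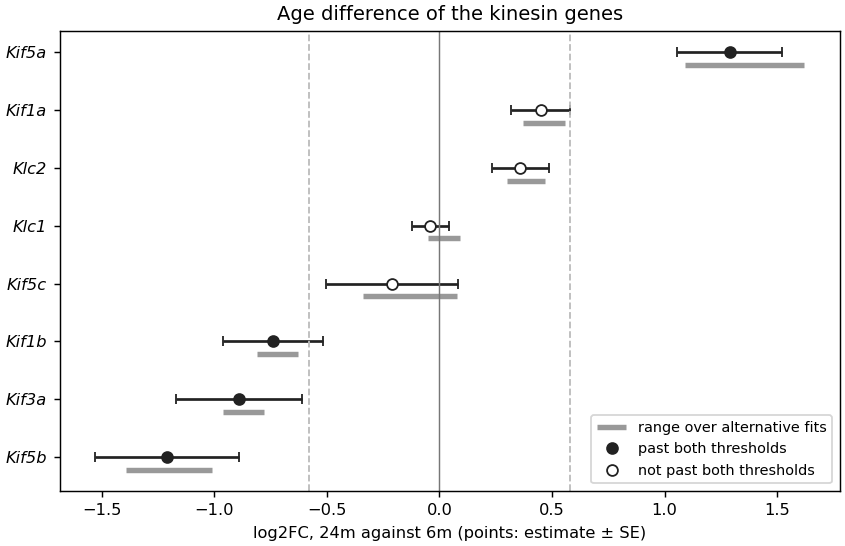
The log2FC (24m against 6m) of the 8 kinesin genes from edgeR, with bars for ± SE; filled points are past both thresholds, dashed lines mark log2FC of -0.58 and 0.58, and grey bars give the range over the alternative fits. Kif5a, at 1.29, and Kif5b, at -1.21, stand at the ends, and the bars of Klc1 and Kif5c cross 0.

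To compare levels between genes, mean CPM were divided by the length of the canonical transcript in kb. At 6m Klc1 stood at 145 ± 4.58 and Klc2 at 41.5 ± 5.99 CPM per kb, followed by Kif1a at 11.3 ± 0.404 and Kif5a at 10.6 ± 4.38, whose libraries overlapped. Kif5b at 4.01 ± 1.56, Kif3a at 4.01 ± 0.530, Kif1b at 3.10 ± 0.535 and Kif5c at 2.94 ± 0.609 CPM per kb came last, each overlapping its neighbours in this order. At 24m Klc1, at 141 ± 5.01, and Klc2, at 54.1 ± 6.19 CPM per kb, still led, and Kif5a, at 26 ± 9.13, now had a higher mean than Kif1a, at 15.5 ± 1.94, although their libraries overlapped. The other 4 genes had overlapping levels, from 2.61 ± 0.787 for Kif5c through 2.21 ± 0.266 for Kif3a and 1.86 ± 0.073 for Kif1b to 1.75 ± 0.550 CPM per kb for Kif5b. Direct RNA reads begin at the poly(A) end and are counted once per molecule. Division by length therefore lowers long genes such as Kif1a and Kif1b. Without it, Klc1, Klc2 and Kif1a were the highest 3 in mean CPM at both ages. In CPM at 24m Kif1a still had a higher mean than Kif5a, 143 ± 17.9 against 111 ± 39.1, although their libraries overlapped.

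Kinesin transcripts are long, and log2FC in these libraries varied with length. The canonical transcripts of 5 of the 8 genes reach 5 kb, where the median over tested genes was 3120 bases. Genes of 5 to 8 kb, the class of Kif3a, Kif5b and Kif5c, had a median log2FC of 0.11 over 1500 genes, and 5.47% of them were called lower. Genes of 8 kb or more, the class of Kif1a and Kif1b, had a median of -0.14 over 487 genes, and 14.8% of them were called lower. Genes of 3 to 5 kb, the class of Kif5a, Klc1 and Klc2, had a median of 0.10, with 14.8% called higher. Transcripts of at least 5 kb held 7.57 to 7.92% of the counts at 6m and 7.86 to 8.78% at 24m. Members lay on both sides of the median in the classes of 3 to 5 kb and of 8 kb or more, and all 3 members of 5 to 8 kb lay below it. The part of transcript length in the members' differences was not tested.

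**Figure D4:**
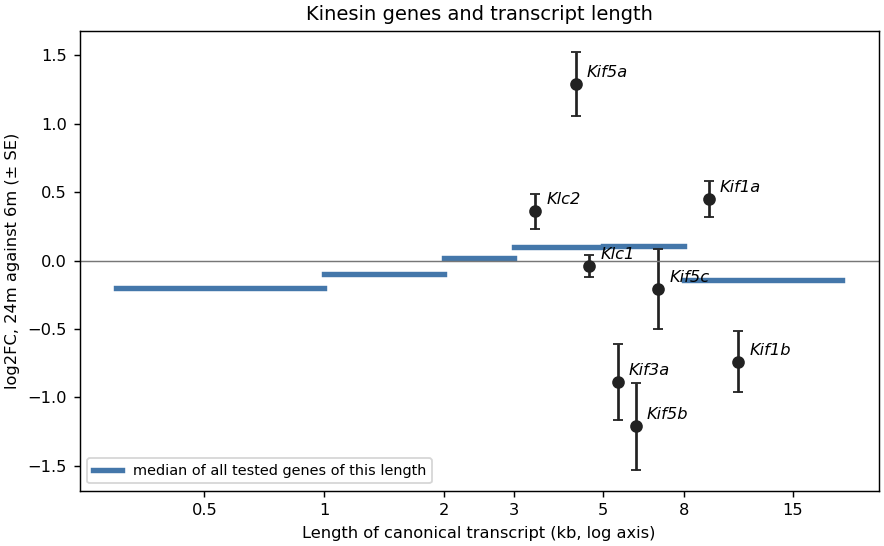
The log2FC (± SE, 24m against 6m) of the 8 kinesin genes against the length of the canonical transcript in kb (log axis); blue lines give the median log2FC of all tested genes of each length class. Kif1a, at 0.45, and Kif1b, at -0.74, lie on opposite sides of the median of -0.14 of genes of 8 kb or more.

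The differences stood beside shifts in marker genes of cell types. The summed CPM of 11 neuron markers were 5148 to 5388 at 6m and 5997 to 7072 at 24m, without overlap. Of the 11, 5 were called higher and 0 lower, beside 10.3% higher and 4.17% lower over all genes. The neuronal tubulin Tubb3 was lower, at a log2FC of -0.30 (adjusted p = 0.0353, edgeR). It passed the limit on adjusted p but not that on size. DESeq2 called 0 of the 11 lower. The 8 oligodendrocyte markers summed to 2072 to 2633 CPM at 6m and 2825 to 3709 at 24m, and the 8 microglia markers to 674.5 to 745 and 845 to 1084, also without overlap. Much of the oligodendrocyte sum was Mbp (1073 and 1770 CPM), whose libraries overlapped. Of the 8 oligodendrocyte markers 2 were called higher and 0 lower. Of 6 tested microglia markers 1 was called higher and 0 lower with edgeR, and DESeq2 called 0 in either direction. Endothelial, choroid plexus and ependymal sums overlapped between the ages, at 0.823, 0.911 and 0.864 times the 6m mean. Most of the choroid plexus sum was Ttr (3436 and 3201 CPM), and 0 markers of these lists were called. The choroid plexus marker Enpp2 (log2FC -0.46, adjusted p = 0.0055, edgeR) and the endothelial marker Ly6c1 (-0.58, adjusted p = 0.015, edgeR) were lower. Both passed the limit on adjusted p but not that on size, which Ly6c1 missed narrowly. The astrocyte sum also overlapped, at 1.06 times the 6m mean, but most of it was Aldoc (2341 and 2148 CPM), and of 7 tested astrocyte markers 4 were called higher and 1 lower. The intermediate filament gene Gfap was 3.84-fold, the glutamate transporter gene Slc1a3 3.14-fold, the connexin gene Gja1 2.67-fold and Atp1b2 1.91-fold higher at 24m, each without overlap, and the glutamate transporter gene Slc1a2 was called lower, at 0.662 times its 6m level. The 5 erythroid markers, all called lower beside 4.17% of all tested genes, summed to 6090.3 to 10032 CPM at 6m and 3350.4 to 6283 at 24m, with overlap. Of these, Hba-a1 and Hba-a2 had nearly equal counts in every library, such as 1820 and 1786 in 6m replicate 1. They may therefore share reads and not be separate signals. The neuron, oligodendrocyte and microglia sums at 24m were 1.23, 1.44 and 1.29 times their 6m means. Among the members, Kif5a and Kif1a were higher at 24m and Kif5b, Kif3a and Kif1b lower. Kif5c had a log2FC of -0.21 and was not called. Mitochondrially encoded genes took 8.67 to 10.9% of the counts at 6m and 6.48 to 8.94% at 24m. The part of cell composition or RNA quality in the members' differences was not tested.

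The other genes of axonal transport were described in 4 lists, which, like the members, were written with earlier results of these data known. Of 37 other kinesins and light chain genes, 12 were read deeply enough to be tested, with a median log2FC of -0.30. Kif3c, a kinesin-2 motor, was called higher. Its CPM were 45.5, 47.0, 41.1 and 38.9 at 6m and 56.4, 81.1, 78.1 and 87.4 at 24m, without overlap, which gave a log2FC of 0.84 ± 0.168 (Benjamini-Hochberg adjusted p = 0.000917, quasi-likelihood test in edgeR). Kif3a and Kif3c, both kinesin-2 motor subunits, were thus called in opposite directions in the main fit. The Kif3a call was lost in 7 of 17 alternative fits. Kif3c shares 2617 exon bases with 1110002L01Rik, a noncoding gene on the opposite strand that is not in the table, so that its reads are less certain. Kifap3, the subunit that links kinesin-2 motors to cargo, had 103.4 ± 11.9 and 78.6 ± 14.8 CPM and was not called (log2FC -0.36, adjusted p = 0.0905, edgeR). Kif3b was under the count limit. Kif22, a kinesin of the mitotic spindle, was called lower at few reads, with 12.3 ± 2.25 and 4.4 ± 3.54 CPM (log2FC -1.29 ± 0.436, adjusted p = 0.0355, edgeR), and this call was lost in 7 of 16 alternative fits. Kifc2, a motor of the minus-end-directed kinesin-14 family, had 159.8 ± 12.7 and 209.7 ± 40.6 CPM and a log2FC of 0.40, under the limit on size.

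All 14 cytoplasmic dynein genes were tested, with a median log2FC of -0.11. Of these, Dynlt1a, Dynlt1b, Dynlt1c and Dynlt1f matched each other at 95% identity or more over 71.6 to 100% of their canonical transcripts. They had similar counts in every library and log2FC of -0.07 to 0.05. The median and the dynein sum below may thus hold the same reads more than once. Dync1h1, the motor-bearing heavy chain of the dynein that runs opposite to most kinesins, was called lower. Its CPM were 491, 517, 536 and 535 at 6m and 390.2, 284, 316 and 330.6 at 24m, without overlap, a log2FC of -0.66 ± 0.0981 (adjusted p = 3.19e-05, edgeR). Its canonical transcript, of 16498 bases, is longer than that of any of the 8 kinesin genes. With library sizes alone in place of TMM factors its log2FC was -0.56, short of the limit on size. The light chain Dynlt3 was called higher, from 9.3 ± 4.63 to 20.2 ± 5.47 CPM (log2FC 1.12 ± 0.342, adjusted p = 0.0204, edgeR), and this call was lost in 6 of 16 alternative fits. The 2 dynein genes with most reads, the light chains Dynll1 and Dynlrb1, had log2FC of -0.27 and -0.13 and were not called. Dynll1 shares 1417 exon bases with Coq5 on the opposite strand, so that its reads are less certain. Summed dynein CPM were 2127 to 2418 at 6m and 1798 to 1937 at 24m, without overlap.

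Of 20 genes of dynactin and dynein regulation, 16 were tested, 3 were called higher and 1 lower, beside 10.3% and 4.17% of all tested genes, and the median log2FC was -0.05. Actr1a and Actr1b, the actin-related proteins that form the short filament of dynactin, were both called higher, at log2FC of 0.81 ± 0.169 (adjusted p = 0.00129, edgeR) and 0.70 ± 0.145 (adjusted p = 0.00126, edgeR), and both kept the call in all 17 alternative fits. Actr1a had 54.2 to 75.9 CPM at 6m and 89.0 to 152 at 24m, and Actr1b 74.1 to 126 and 140.4 to 184, each without overlap. Capza2, a subunit of the capping protein at the end of that filament, was called higher at 0.65 (adjusted p = 0.0219, edgeR), a call lost in 6 of 17 alternative fits, and Pafah1b1, which encodes the dynein regulator LIS1, was called lower at -0.63 (adjusted p = 0.0491, edgeR), a call lost in 12 of 17 alternative fits. The dynactin subunits with most reads, Dctn1 and Dctn2, had log2FC of -0.22 and -0.16 and were not called.

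Of 25 adaptors and cargo linkers of kinesins, 23 were tested, 5 were called higher and 0 lower, beside 10.3% higher and 4.17% lower over all genes, and the median log2FC was 0.13. At an unadjusted p under 0.05, 9 were higher and 0 lower with edgeR, where 18.3% and 16% of all genes were. DESeq2 on the raw counts called 4 higher and 0 lower, where it called 6.71% and 2.19% of all genes. Clstn1, a membrane protein that binds kinesin light chains, had CPM of 304, 315, 269 and 339 at 6m and 582, 672, 632 and 498 at 24m, a 1.94-fold difference without overlap (adjusted p = 7.95e-07, edgeR). Arl8b, a small GTPase that couples lysosomes to kinesins, had 38.2, 25.3, 28.6 and 31.4 CPM at 6m and 53.3, 74.9, 90.9 and 89.0 at 24m, a 2.50-fold difference without overlap (adjusted p = 2.05e-05, edgeR).

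The remaining adaptors that were called were Mapk8ip3, a scaffold between kinesin-1 and cargo, at log2FC of 0.68 (adjusted p = 0.0012, edgeR), Trak1, which joins mitochondria to kinesin-1, at 0.70 (adjusted p = 0.00775, edgeR), and Clstn2, a relative of Clstn1, at 0.88 (adjusted p = 0.0325, edgeR). Only the Clstn2 call was lost in alternative fits, in 7 of 17. Clstn3, which had the most reads of the adaptors after Clstn1, had a log2FC of -0.01 and was not called. Mapk8ip3 shares exon bases with Eme2 on its own strand and Clstn1 with Pik3cd on the other strand, so that their reads are less certain. Summed adaptor CPM were 2409.6 to 2803 at 6m and 2905 to 3483 at 24m, without overlap.

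**Figure D5:**
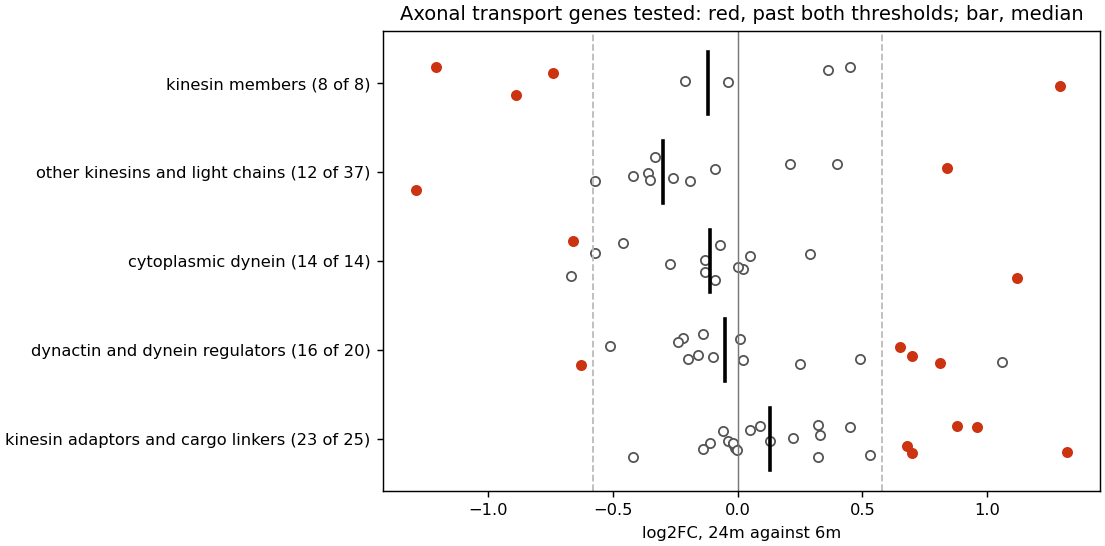
The log2FC (24m against 6m) of every tested gene in the 5 lists of axonal transport genes, with the numbers tested of all genes in brackets; red points are past both thresholds, dashed lines mark log2FC of -0.58 and 0.58, and black bars give list medians. The medians run from -0.30 for the other kinesins to 0.13 for the adaptors, and the adaptors have 5 genes called higher and 0 lower.

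The genes whose levels ran most like each member over the 8 libraries were found by Pearson's r of log2 CPM among the genes with a mean count over 50. These values are descriptions over 8 points that share the age difference and the library scaling. Nearest to Kif5a were Atp6v0a1, a subunit of the vacuolar proton pump, at r = 0.982 and Ywhaz, a 14-3-3 protein, at 0.974. Nearest to Kif1a were R3hdm4 at 0.983 and Npcd at 0.981. Klc2 ran most like Map1a, a microtubule-associated protein of neurons, at 0.966 and the dynactin gene Actr1b at 0.961.

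Among the lower genes, Kif3a ran most like Acot7 at r = 0.985 and Ufc1 at 0.979, and Kif1b like Car11 at 0.981 and Bag1 at 0.968. Kif5b was nearest to Kars1, a tRNA synthetase, at 0.953 and to Enpp2 at 0.939, the latter also in the list of choroid plexus markers. Kif5c was nearest to Mpv17l2 at 0.967 and the mitochondrial kinase gene Pink1 at 0.961, and Klc1, which varied least, to Rrp1 at 0.924 and Ndufb1 at 0.905.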

How the data were processed

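Per the labels, RNA came from brain hemispheres of male mice at 6m and 24m, with 4 libraries per age. The deposited table holds unnormalized counts of reads on genes, made by the authors by mapping ONT reads to GRCm39 with minimap2 (version 2.24 in the submitters' processing notes) and counting them on Ensembl genes. The strand and multi-mapping settings of the counting are not given in the sources used here, and counts from opposite or near-identical genes may be shared. The authors' later steps, a low-count filter, quantile normalization, a row-wise median normalization and DESeq2, are not part of these values. The DESeq2 fit on quantile-normalized counts described here left out the row-wise median step. Genes were matched by identifier to GENCODE vM39 (22281 of 22430); the other 149 stayed in totals and tests.

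The tests used R 4.3.3 and edgeR 4.0.16 (quasi-likelihood, TMM, age as the only term) on genes with a mean count over 5, which held 98.6% of counts; standard errors come from the log2FC and the F statistic. Each library is 1 mouse. DESeq2 1.42.0, limma 3.58.1 for quantile normalization, RLE factors, library sizes alone, other filters and left-out libraries served as alternatives. The Kif5 shares per transcript length were added after seeing the data. The functions were tested on simulated counts. Copies were searched with BLAST+ 2.17.0 and coding sequences aligned with Biopython 1.88. Shares have Clopper-Pearson intervals. At these depths 3 reads, the limit that a count of 0 allows, are 2.30 to 5.42 CPM.

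The members, lists and tests were chosen with earlier results of these data known. Named are the members, in each list the called genes (at most 6) and the 2 with most reads, and the 2 genes most like each member. Kif3b, the Dynlt1 genes, the marker genes and the genes that share exons were named after their values were seen.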

Additional observations from a re-analysis of the deposited data

Results flagged for a closer look

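Within groups of 4 libraries, the gap between the most extreme library and its neighbour passed Dixon's limit (0.829 of the range) in 4 of 62 groups examined, where chance gives about 3. Kif5c in 24m replicate 4 had 9.97 CPM, with the other 24m libraries at 19.8 to 21.8. Klc1 in 24m replicate 2 had 617 CPM, with the others at 658 to 665. The Kif5 genes had 63 reads in 24m replicate 1, with 146 to 160 in the others. The dynein light chain Dynlt3 had 16.2 CPM in 6m replicate 3, with 6.28 to 7.39 in the others.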

How the results depend on the processing

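Kif5a was called higher in all 17 alternative fits (log2FC 1.09 to 1.62). The alternatives counted for each gene include the main fit judged by adjusted p alone, in which no call can be lost. Kif5b was lost in 1 of 16, Kif1b in 5 and Kif3a in 7 of 17, each with the same sign throughout. The cause was not tested. DESeq2 on raw counts called 834 genes (629 higher, 205 lower), 2 members (1 lower), 1 other kinesin, 1 dynein and 2 dynactin genes. On quantile-normalized counts it called 819 (547 higher), 2 members (1 lower) and 2 dynactin genes. Library sizes alone called 223 genes lower, 1 other kinesin and 1 dynein gene, moved the median log2FC of all genes to 0.102 and put 84.5% of calls on the higher side, against 71.2%. More than 5 counts in every library, which left out Kif5b, gave 222 lower, 1 other kinesin and 1 dynein gene. An adjusted p alone gave 883 lower, 3 members higher (with Kif1a and Klc2) and 4 dynein genes, with 56.7% of calls higher. The log2FC of Klc1 turned to 0.09 on quantile-normalized counts, 0.06 with library sizes alone and 0.0044 with more than 5 counts in every library, and that of Kif5c was -0.34 to 0.08 with 1 library left out, positive without 24m replicate 4.

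With 1 library left out, 989 to 1594 genes were called (713 to 1132 higher, 276 to 462 lower). Among the members 1 to 4 were called, with 1 higher in each fit and 0 to 3 lower: 1 without 6m replicate 3 and 2 without 6m replicate 1 or 24m replicate 2. The counts were 1 to 3 for other kinesins (1 without 6m replicates 1 and 3 and 24m replicates 1, 2 and 3, each in turn), 1 to 3 for dynein (1 without 24m replicate 2 or 3), 2 to 4 for dynactin (2 without 6m replicate 4 or 24m replicate 2 or 4) and 4 to 6 for adaptors. The rise of the Kif5a share was 25.7 to 32.9 percentage points.

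The sample titles give replicate numbers without naming a pairing of the mice. Deviations from the group means correlated at 0.065, -0.01, 0.005 and -0.16 between same-numbered libraries. These values cannot exclude that same-numbered libraries were processed together. With a replicate block 1308 genes were called (940 higher, 368 lower), and 4 members, the same as without it. Depth limits Kif3a, Kif5b and Kif5c most, with at most 27 reads per library.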
